A study of Mus musculus with 12 samples.

Results

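The kinases AMPK and mTOR and the proteins that restrain mTOR complex 1 were examined here as a set of 10 genes. They were chosen by name, with earlier results of these data known. The set holds both AMPK catalytic subunits (Prkaa1, Prkaa2), the kinase Mtor with the scaffolds of its complexes (Rptor, Rictor), the TSC complex genes (Tsc1, Tsc2) and the brakes Ddit4, Sesn2 and Deptor. All 10 were found among the 55487 annotated genes, and all 10 were among the 15862 genes with enough counts to be tested. Bulk RNA from liver was sequenced in 12 libraries of 3 mice per group. The fasted knockout group had been fasted overnight and was labelled as lacking Foxo3 in hepatocytes through Alb-cre, a Cre recombinase driven by the albumin promoter that is active in liver parenchyma. The fasted control group was fasted in the same way and carried the floxed Foxo3 allele without Cre. The fed knockout group and the fed control group had the same genotypes and were not fasted. All mice were males of 16 to 18 months that carried floxed Foxo3 and had been kept on food ad libitum. The control groups had no Cre, so Foxo3 loss and the presence of Alb-cre cannot be told apart, and no young mice or females were included.

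AMPK is a kinase that is activated when cellular energy is low, and in liver it restrains lipid and glucose synthesis. mTORC1 is the nutrient-activated kinase complex that promotes protein synthesis and restrains autophagy, and mTORC2 is its sister complex in the insulin pathway upstream of Akt. The TSC complex switches off Rheb, the small GTPase that activates mTORC1 at the lysosome, and AMPK acts on both TSC2 and raptor. These controls work largely through phosphorylation and protein binding, which RNA levels do not measure.

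The RNA of 3 of the 10 genes differed between fasted and fed livers when both genotypes were averaged, against 9.07% of all tested genes. Tsc1 and Prkaa2 were lower in fasted livers and Rptor was higher, each by less than 1.5-fold. Ddit4, the gene with the largest estimate, did not pass the test. No member passed in any comparison of knockout with control livers, nor in the test of whether fasting acted differently in the 2 genotypes. For orientation, the sequence of the 250 bases before the RefSeq start of each of the 3 genes that passed is printed here. It is given 5′ to 3′ on the gene's own strand, on build GRCm38.p6. The RefSeq start matches the deposited gene position given below for Rptor, but differs from it by a few bases for Tsc1 and Prkaa2. The stretch for Tsc1 is chr2:28640983-28641232 on the plus strand, that for Prkaa2 is chr4:105109899-105110148 on the minus strand and that for Rptor is chr11:119602655-119602904 on the plus strand. Capitals mark every CG dinucleotide, a sequence that is dense in CpG island promoters.
Tsc1: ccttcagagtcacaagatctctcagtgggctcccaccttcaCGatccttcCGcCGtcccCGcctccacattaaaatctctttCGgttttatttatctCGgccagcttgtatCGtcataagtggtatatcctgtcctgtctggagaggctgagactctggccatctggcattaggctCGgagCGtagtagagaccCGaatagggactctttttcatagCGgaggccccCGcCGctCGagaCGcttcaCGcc
Prkaa2: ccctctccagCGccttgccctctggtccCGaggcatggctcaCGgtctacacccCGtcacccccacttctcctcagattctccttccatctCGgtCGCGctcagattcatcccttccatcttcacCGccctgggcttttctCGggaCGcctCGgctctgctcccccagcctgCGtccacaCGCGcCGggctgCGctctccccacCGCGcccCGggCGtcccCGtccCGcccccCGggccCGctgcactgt
Rptor: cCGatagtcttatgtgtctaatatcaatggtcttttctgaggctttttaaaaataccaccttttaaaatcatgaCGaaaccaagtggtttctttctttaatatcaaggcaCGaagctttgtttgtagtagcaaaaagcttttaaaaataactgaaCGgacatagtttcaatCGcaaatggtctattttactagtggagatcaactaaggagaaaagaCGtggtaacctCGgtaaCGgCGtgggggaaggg

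The 3 sequences differed widely in base composition. G and C made up 54.4% of the Tsc1 stretch with 16 CG dinucleotides, 70.0% of the Prkaa2 stretch with 24, and 37.6% of the Rptor stretch with 9. The median over 32851 such RefSeq windows was 52.4% and 6 CG dinucleotides. Among the other members with a window, Prkaa1 was the richest, at 85.2% and 45 CG dinucleotides, followed by Rictor at 81.2% and 40. Windows of 9 members, all but Deptor, were searched on both strands for GTAAACA, a forkhead motif, for TGATGNAA, a motif of the stress factor ATF4, and for CACGTG, the E-box core bound by TFEB. The search covered each whole RefSeq window, while base composition and the printed stretches were taken from its first 250 bases. None of the 9 windows held any of these motifs, while the motifs occurred in 3.65%, 3.97% and 7.15% of all windows, in that order. None of the 3 motifs contains another, N stands for any base, and each was searched as an exact match.

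Deptor was the most abundant of the 10 transcripts per unit length and Rictor the least. On the deposited TPM scale, which corrects for gene length, Deptor averaged 67.9 ± 9.98 TPM over the 12 libraries (SD, n = 12). It was followed by Prkaa2 at 27.4 TPM, Mtor at 16.7 TPM and Tsc2 at 14.2 TPM. Prkaa1 (8.58 TPM), Rptor (8.16 TPM), Ddit4 (7.38 TPM), Sesn2 (6.99 TPM) and Tsc1 (6.70 TPM) formed a close group, and Rictor averaged 3.35 TPM. The ranges over the libraries did not overlap between Deptor and Prkaa2, between Tsc2 and Prkaa1, or between Tsc1 and Rictor, and all other neighbours in the order overlapped. In the close group the order was unstable, since Prkaa1 exceeded Rptor in 7 of 12 libraries and Ddit4 exceeded Sesn2 in 6 of 12.

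**Figure D1:**
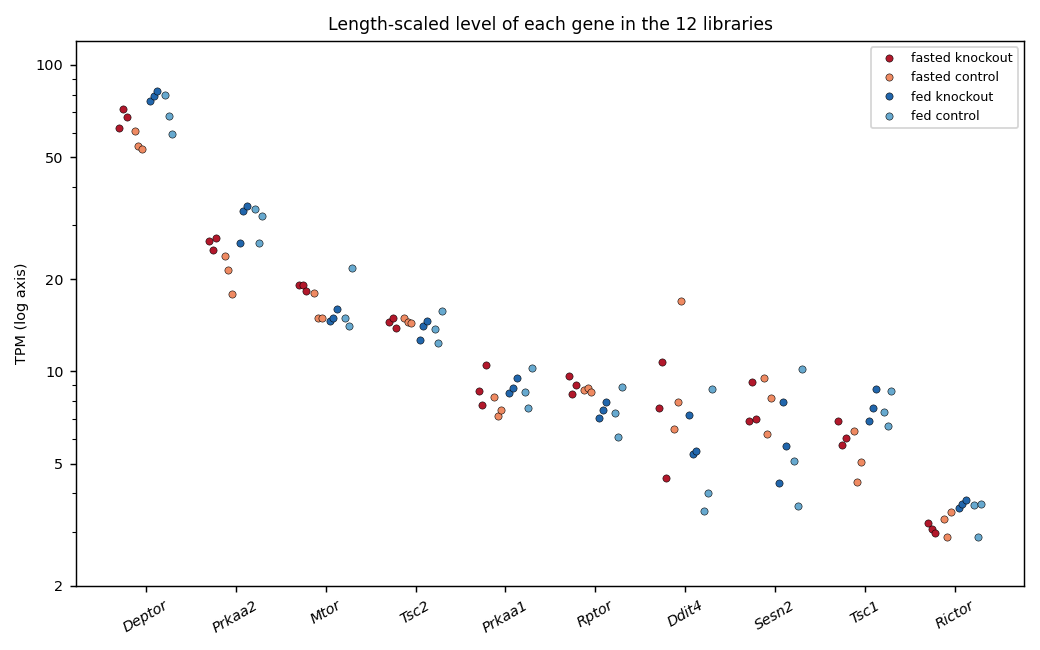
Length-scaled level of the 10 genes (TPM, log axis) in the 12 libraries, ordered by mean level, with 1 point per library coloured by group. Deptor, at 53.3 to 82.0 TPM, lies above every other gene in every library, and Rictor, at 2.88 to 3.82 TPM, lies below the range of Tsc1.

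The libraries held 17520058 to 22414976 counts on genes, and the lowest member count in any library was 54, for Ddit4. Foxo3, the targeted gene, was not lower in the libraries labelled knockout. It averaged 51.2 ± 3.98 CPM (counts scaled to library size) in fasted knockout livers and 40.8 ± 3.20 CPM in fasted control livers. In fed livers it averaged 60.2 ± 1.82 CPM in knockout and 46.8 ± 3.17 CPM in control libraries (SD, n = 3 each). The knockout over control difference, averaged over feeding states, was 0.34 on the log2 scale (SE 0.07), with an adjusted p of 0.25 by edgeR and 0.0046 by DESeq2. A count over the whole gene does not show the loss of floxed exons, and the labels do not name those exons, so it does not check the genotype. "Knockout" below means the libraries labelled so. The 5 hepatocyte markers summed to 60677 to 110580 CPM per library over the groups, and RNA of other liver cell types was present in all groups. In the averaged fasting comparison 1 of these 5 passed as higher and 1 of 4 tested cholangiocyte markers as lower. Only 1 of the 5 hepatocyte markers had a positive estimate, with a list median of -0.086 on the log2 scale. Of the 4 cholangiocyte markers 2 had a positive estimate, with a list median of -0.32. None of the 6 endothelial and 6 stellate markers passed the fasting test, but all 12 had negative estimates. The stellate list median was -0.90 in control livers but 0.034 in knockout livers, where 4 of 6 estimates were positive. On average 1 of 6 infiltrating macrophage and 2 of 6 Kupffer cell markers were positive (medians -0.53 and -0.18). So were 4 of 4 T and NK cell and 4 of 5 B and plasma cell markers (medians 0.11 and 0.64), and none of these passed. The summed endothelial markers ranged over 171 to 238 CPM in fasted knockout and 165 to 256 CPM in fasted control livers, and over 214 to 282 CPM in fed knockout and 214 to 321 CPM in fed control livers. The summed stellate markers ranged over 151 to 349 CPM, 179 to 271 CPM, 163 to 307 CPM and 283 to 619 CPM in the same order of groups. Each marker was detected in every group, and the part of these cells in the results below was not tested. In bulk RNA, fewer cells of a type and less RNA per cell cannot be told apart.

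Prkaa1 and Prkaa2 encode the alternative catalytic alpha subunits of AMPK, of which Prkaa2 was the more abundant on the TPM scale in every library. Prkaa2 (chr4:105029874-105109890, minus strand, build mm10) was lower in fasted livers. In fasted livers Prkaa2 had 83.8, 80.3 and 92.2 CPM in the 3 knockout libraries and 73.5, 76.2 and 55.8 CPM in the 3 control libraries. In fed livers Prkaa2 had 89.0, 106 and 113 CPM in the knockout libraries and 113, 90.0 and 88.5 CPM in the control libraries. CPM here are counts relative to library size after TMM scaling, which adjusts for differences in library composition. In either direction, 22.4% of all tested genes had no overlap between fasted and fed control libraries, and 23.3% none in knockout libraries. For Prkaa2 every fasted control library lay below every fed control library, while in knockout livers the fasted and fed values overlapped. Averaged over genotypes, the fasted over fed difference was -0.39 on the log2 scale (SE 0.10, adjusted p = 0.029, edgeR quasi-likelihood test with Benjamini-Hochberg adjustment over all tested genes). Separately it was -0.27 in knockout livers (SE 0.14, adjusted p = 0.43) and -0.51 in control livers (SE 0.14, adjusted p = 0.066), by the same edgeR test. The averaged call was lost without any one of 6 libraries (fasted knockout 1 and 2, fasted control 3, fed knockout 2 and 3, fed control 1), with adjusted p up to 0.081.

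Prkaa1 (chr15:5143861-5181899, plus strand) did not pass. In fasted livers Prkaa1 had 15.8, 14.6 and 20.7 CPM in knockout and 14.8, 14.8 and 13.7 CPM in control libraries. In fed livers Prkaa1 had 16.8, 16.4 and 18.0 CPM in knockout and 16.7, 15.2 and 16.6 CPM in control libraries. On the CPM scale the 3 fasted control values lay below the 3 fed control values, which 22.4% of all tested genes showed in either direction. On the TPM scale they overlapped, with up to 8.22 TPM in fasted and from 7.57 TPM in fed control libraries. The third fasted knockout library was the highest of all 12. The mean fasting difference was -0.08 on the log2 scale (95% interval -0.27 to 0.11). The ratio of Prkaa2 to Prkaa1 in TPM averaged 2.96 ± 0.32 in fasted knockout and 2.77 ± 0.34 in fasted control livers, against 3.52 ± 0.37 in fed knockout and 3.52 ± 0.43 in fed control livers (SD, n = 3 each). These ratios overlapped between fasted and fed libraries.

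Mtor (chr4:148448611-148557683, plus strand), the kinase shared by both complexes, had its 3 highest CPM values in fasted knockout livers. In fasted livers Mtor had 76.4, 78.1 and 78.4 CPM in knockout and 70.2, 67.3 and 59.4 CPM in control libraries. In fed livers Mtor had 62.7, 60.2 and 65.6 CPM in knockout and 63.1, 61.3 and 76.1 CPM in control libraries. The fasted knockout values lay above all fasted control and all fed knockout values. Such a lack of overlap, in either direction, was shown by 14.0% and 23.3% of all tested genes, in that order. The third fed control library lay close to the fasted knockout values on the CPM scale. On the TPM scale that library was the highest of all, at 21.7 TPM against 18.3 to 19.2 TPM in fasted knockout livers. The fasted over fed difference was 0.31 in knockout livers (SE 0.10, adjusted p = 0.16) and -0.03 in control livers (SE 0.10, adjusted p = 0.92) by edgeR. The test of the difference between these fasting effects gave 0.33 on the log2 scale (95% interval 0.02 to 0.64), with an unadjusted p of 0.038 and an adjusted p of 0.68 by edgeR, and so did not pass.

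Rptor (chr11:119602905-119899576, plus strand) encodes raptor, the scaffold that brings substrates to mTORC1, and it was higher in fasted livers. In fasted livers Rptor had 51.3, 45.8 and 51.7 CPM in knockout and 45.2, 53.0 and 45.3 CPM in control libraries. In fed livers Rptor had 40.2, 40.3 and 43.4 CPM in knockout and 41.2, 35.5 and 41.5 CPM in control libraries. On the TPM scale fasted and fed Rptor values overlapped, with from 8.41 TPM in fasted and up to 8.88 TPM in fed libraries. On the CPM scale all 6 fasted libraries lay above all 6 fed libraries, a lack of overlap in either direction that 4.93% of all tested genes showed. The difference averaged 0.27 on the log2 scale (SE 0.07, adjusted p = 0.028), and was 0.26 in knockout livers (adjusted p = 0.22) and 0.28 in control livers (adjusted p = 0.14) by edgeR. The averaged call was lost without any one of 6 libraries (fasted knockout 1 and 3, fasted control 2, fed knockout 1 and 2, fed control 2), with adjusted p up to 0.071, and on log2(TPM + 1) with limma (adjusted p = 0.15). An antisense gene, Rptoros, shares 84 exon bases with Rptor and averaged 24.4 counts against 903 for Rptor. The strand setting of the counting is not given in the sources used here, so reads in that stretch cannot be assigned.

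Rictor (chr15:6708379-6800401, plus strand), the scaffold of mTORC2, did not pass in any comparison. In fasted livers Rictor had 21.3, 21.0 and 21.2 CPM in knockout and 21.5, 21.7 and 23.04 CPM in control libraries. In fed livers Rictor had 25.7, 24.9 and 26.3 CPM in knockout and 26.0, 21.1 and 21.7 CPM in control libraries. Fasted and fed knockout values did not overlap, which 23.3% of all tested genes showed in either direction, with the fasted values lower. Fasted and fed control values overlapped. The fasted over fed difference was -0.27 in knockout livers (adjusted p = 0.17), -0.05 in control livers (adjusted p = 0.80) and -0.16 on average (adjusted p = 0.15) by edgeR. The ratio of Rptor to Rictor in TPM averaged 2.94 ± 0.17 in fasted knockout and 2.73 ± 0.31 in fasted control livers, against 2.02 ± 0.06 in fed knockout and 2.17 ± 0.21 in fed control livers (SD, n = 3 each). Its lowest fasted value, 2.47, lay just above its highest fed value, 2.41. The share of gene pairs with such a separation was not computed.

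Tsc1 (chr2:28641228-28691167, plus strand) encodes hamartin, which stabilises the TSC complex, and was lower in fasted livers. In fasted livers Tsc1 had 32.0, 27.5 and 30.5 CPM in knockout and 29.3, 22.9 and 23.5 CPM in control libraries. In fed livers Tsc1 had 34.5, 35.8 and 42.2 CPM in knockout and 36.6, 34.0 and 35.5 CPM in control libraries. On the TPM scale fasted and fed Tsc1 values overlapped, with up to 6.87 TPM in fasted and from 6.65 TPM in fed libraries. On the CPM scale all 6 fasted libraries lay below all 6 fed libraries, a lack of overlap in either direction that 4.93% of all tested genes showed. The averaged difference was -0.41 on the log2 scale (SE 0.08, adjusted p = 0.0071 by edgeR), and the call held without each of the 12 libraries, with adjusted p between 0.003 and 0.024. In control livers alone the difference was -0.49 (SE 0.11, adjusted p = 0.031) and in knockout livers -0.32 (SE 0.11, adjusted p = 0.18) by edgeR. The effects in the 2 genotypes did not pass a test of their difference, at 0.16 on the log2 scale (95% interval -0.18 to 0.51, adjusted p = 0.89 by edgeR). On log2(TPM + 1) with limma the averaged difference was -0.36 and just missed the threshold (adjusted p = 0.059). The control call was lost without fasted control 2 or 3 or any fed control library, with adjusted p up to 0.12, and on the 6 control libraries alone (adjusted p = 0.090).

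Tsc2 (chr17:24595816-24632630, minus strand) encodes tuberin, the part of the complex that acts on Rheb, and was the steadiest member. In fasted livers Tsc2 had 54.7, 58.1 and 56.5 CPM in knockout and 55.5, 62.1 and 54.4 CPM in control libraries. In fed livers Tsc2 had 51.9, 54.0 and 57.3 CPM in knockout and 55.5, 51.5 and 52.5 CPM in control libraries. The groups overlapped throughout. The averaged fasting difference was 0.08 on the log2 scale (95% interval -0.05 to 0.21, adjusted p = 0.45 by edgeR). The SD of Tsc2 within groups, 0.07 on the log2 scale, was at the 3.97th percentile of the genes of similar CPM. Tsc2 overlaps Pkd1 on the opposite strand over 693 exon bases, 7.20% of its exon length, and Pkd1 averaged 633 counts against 1122 for Tsc2.

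Ddit4 (chr10:59949669-59951834, minus strand) encodes REDD1, a stress-induced brake that acts on mTORC1 through TSC. In fasted livers Ddit4 had 5.26, 7.59 and 3.34 CPM in knockout and 4.40, 6.22 and 11.6 CPM in control libraries. In fed livers Ddit4 had 5.38, 3.77 and 3.93 CPM in knockout and 2.56, 3.04 and 5.31 CPM in control libraries. Its highest value was in the third fasted control library, and fasted and fed values overlapped in both genotypes. The fasted over fed difference was 0.31 in knockout livers (95% interval -0.55 to 1.18), 1.03 in control livers (95% interval 0.16 to 1.90) and 0.67 on average (95% interval 0.06 to 1.28). Their adjusted p values by edgeR were 0.79, 0.18 and 0.17. Without the third fasted control library the control difference was 0.54. Ddit4 was the most variable member, with a within-group SD of 0.55 on the log2 scale, at the 94.4th percentile of genes at 5 to 20 CPM.

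Sesn2 (chr4:132492032-132510501, minus strand) encodes sestrin 2, a leucine sensor that restrains mTORC1 when leucine is scarce. In fasted livers Sesn2 had 9.42, 12.9 and 10.3 CPM in knockout and 12.8, 9.62 and 11.1 CPM in control libraries. In fed livers Sesn2 had 6.38, 11.02 and 8.07 CPM in knockout and 7.41, 5.47 and 12.3 CPM in control libraries. The second library of the fed knockout group and the third of the fed control group reached the fasted values. The averaged difference was 0.39 on the log2 scale (SE 0.19, adjusted p = 0.25 by edgeR). Without the third fed control library it was 0.58 with an adjusted p of 0.037 by edgeR. The within-group SD of Sesn2, 0.38, was at the 86.7th percentile of genes at 5 to 20 CPM.

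Deptor (chr15:55112317-55259271, plus strand) encodes a protein that binds and inhibits mTOR in both complexes. In fasted livers Deptor had 217, 258 and 256 CPM in knockout and 209, 214 and 186 CPM in control libraries. In fed livers Deptor had 287, 281 and 296 CPM in knockout and 295, 260.5 and 183 CPM in control libraries. The fasted knockout values lay below the fed knockout values, a lack of overlap in either direction that 23.3% of all tested genes showed. In control livers only the third fed library broke the same separation. It was the lowest of all 12 libraries on the CPM scale. On the TPM scale, at 59.5 TPM, it lay above fasted control 2 and 3 (54.3 and 53.3 TPM). The averaged difference was -0.26 on the log2 scale (SE 0.11, adjusted p = 0.16 by edgeR), and -0.35 without the third fed control library (adjusted p = 0.015 by edgeR). Gm9920 shares 303 exon bases with Deptor on the opposite strand and averaged 104 counts against 4942 for Deptor.

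The third fed control library thus decided the calls of 2 brakes. It was set against the mean of fed control libraries 1 and 2 on the log2 scale of TMM-scaled CPM. There it was 0.93 higher for Sesn2, 0.90 higher for Ddit4 and 0.29 higher for Mtor, while Deptor differed by -0.60. The median over all tested genes was 0.01. The same library had 82.3 CPM of the collagen gene Col1a1 and 133 CPM of Spp1, against at most 15.4 and 27.9 CPM in the other fed control libraries. The part of this tissue makeup in the brakes' values was not tested. Without that library, 5 members (Prkaa2, Rptor, Tsc1, Sesn2 and Deptor) and 8.81% of all genes passed the averaged fasting test.

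**Figure D2:**
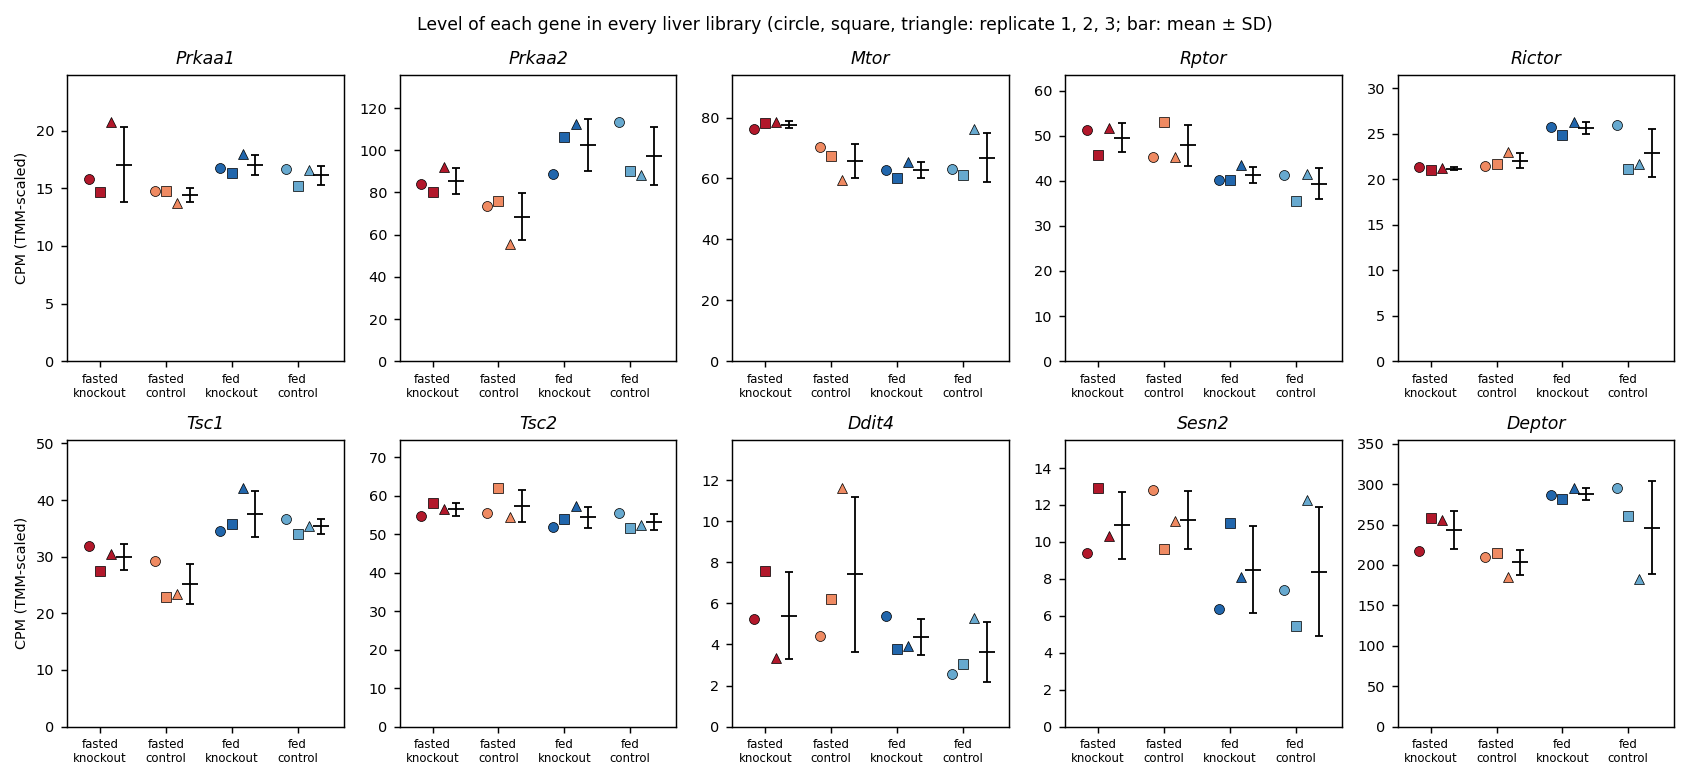
TMM-scaled CPM of the 10 genes in the 12 libraries by group, with replicates 1 to 3 as circle, square and triangle and bars for the mean ± SD. All 6 fasted libraries lie above the 6 fed libraries for Rptor (45.2 to 53.0 against 35.5 to 43.4 CPM) and below them for Tsc1 (22.9 to 32.0 against 34.0 to 42.2 CPM).

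Counted over the set, 1 member was higher (Rptor) and 2 were lower (Prkaa2, Tsc1) in the averaged fasting comparison. Over all tested genes 9.07% passed, 4.55% as higher and 4.52% as lower. In knockout livers alone 0 members passed by edgeR, against 2.48% of all genes, and 0 passed by DESeq2, while 4 members had an unadjusted p under 0.05, against 14.6% of all genes. In control livers alone 1 member was lower, against 4.14% of all genes called and 2.09% called lower. DESeq2 called Prkaa2 and Tsc1 there. On the CPM scale fasted and fed libraries did not overlap, in either direction, for 5 members in knockout livers, against 23.3% of all tested genes. In control livers this held for 4 members, against 22.4% of all tested genes. The median averaged log2 difference of the 10 members was -0.00041, against -0.0093 over all tested genes, with 5 members positive and 5 negative.

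**Figure D3:**
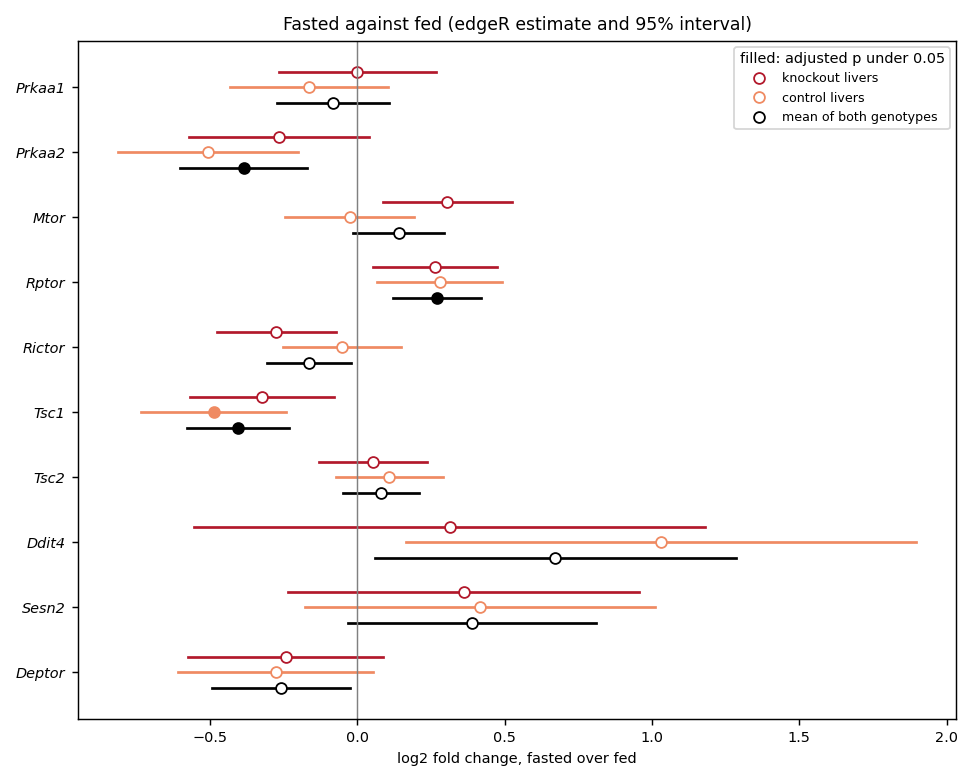
Fasted over fed log2 fold change of the 10 genes with 95% intervals by edgeR, in knockout livers, control livers and averaged over both, with filled points where the adjusted p was under 0.05. Prkaa2 (-0.39), Rptor (0.27) and Tsc1 (-0.41) are filled for the average and Tsc1 (-0.49) for control livers, and Ddit4 has the widest intervals.

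Between knockout and control livers no member passed. In fasted livers 0 of 10 passed, against 0.0315% of all genes, and the count was also 0 by DESeq2. Only 3 had an unadjusted p under 0.05, all higher in the libraries labelled knockout: Prkaa2 by 0.32 on the log2 scale (95% interval 0.01 to 0.62), Mtor by 0.24 (95% interval 0.02 to 0.46) and Tsc1 by 0.25 (95% interval 0.0025 to 0.50). Their adjusted p values were 0.54, 0.53 and 0.55 by edgeR, and an unadjusted p under 0.05 was found for 9.01% of all genes. On the CPM scale Prkaa2, Mtor and Deptor were higher and Rictor lower in all 3 fasted knockout than in all 3 fasted control libraries. The Tsc1 values overlapped, and on the TPM scale so did those of Rictor (2.96 to 3.20 against 2.88 to 3.47 TPM). Over all tested genes 14.0% had no overlap between these 2 groups in either direction. Deptor averaged 243 ± 23.1 CPM in fasted knockout and 203 ± 15.4 CPM in fasted control livers (SD, n = 3 each), a log2 difference of 0.26 (adjusted p = 0.64 by edgeR). In fasted livers none of 5 tested B and plasma cell markers was higher in knockout livers, and their sum reached 1879 CPM in the third fasted control library, against 13.4 to 35.2 CPM in fasted knockout livers. The summed B and plasma cell markers of the other 2 fasted control libraries were 39.5 and 49.7 CPM. The log2 difference was also negative for every tested marker of Kupffer cells (6), infiltrating macrophages (6), endothelium (6), cholangiocytes (4) and T and NK cells (4), with list medians of -0.52, -0.20, -0.18, -0.28 and -1.06. It was positive for all 6 stellate cell and fibroblast markers (median 0.22) and for 3 of 5 hepatocyte markers (median 0.03). No marker of any list passed by edgeR, and the part of these cell types in the members' values was not tested.

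In fed livers 0 of 10 members passed by edgeR, with 0% of all genes called, and none had an unadjusted p under 0.05. By DESeq2 0 passed as well. DESeq2 gave no adjusted p for Prkaa1, Rictor, Tsc1, Ddit4 and Sesn2 in this comparison, so these members could not pass by it. The estimates ran from -0.09 for Mtor to 0.26 for Ddit4 on the log2 scale. For Tsc2 the 95% interval was -0.15 to 0.21, and for Rptor -0.14 to 0.28. For Ddit4 it was -0.62 to 1.14, so that a 2-fold increase was within it. Averaged over feeding states 0 members passed, against 0.0126% of all genes, and 0 by DESeq2. The 1 member with an unadjusted p under 0.05, a level reached by 7.91% of all genes, was Deptor, at 0.24 on the log2 scale (95% interval 0.01 to 0.48, adjusted p = 0.63 by edgeR). In the test of whether fasting acted differently by genotype 0 members passed, against 0.0063% of all genes, and 0 by DESeq2. Mtor was the 1 member with an unadjusted p under 0.05, against 7.19% of all genes. For Ddit4 the 95% interval of that difference, -1.94 to 0.51, included 0.

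**Figure D4:**
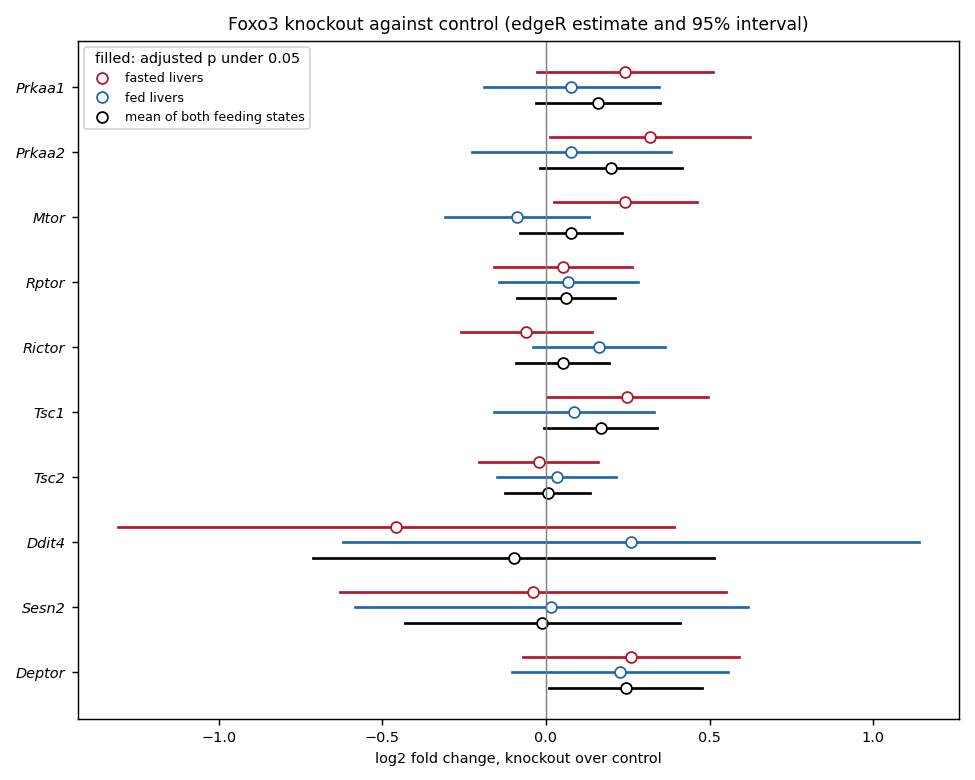
Knockout over control log2 fold change of the 10 genes with 95% intervals by edgeR, in fasted livers, fed livers and averaged over both. No point is filled, since no adjusted p was under 0.05, and the fasted intervals of Prkaa2, Mtor and Tsc1 and the averaged interval of Deptor lie just above 0.

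Of 62 other genes of the pathway 59 could be tested, and Prkag3, Rragb and Eif4ebp3 had at most 14 counts in any library. In the averaged fasting comparison 2 of the 59 were higher and 3 lower, in number by edgeR and also by DESeq2, where 9.07% of all tested genes were called by edgeR. The list medians of the log2 difference were 0.12 for AMPK subunits and upstream kinases, 0.0017 for mTOR complex subunits, 0.0021 for Rag and Ragulator genes, -0.084 for sensors and Rag regulators, -0.15 for the TSC and Rheb branch and -0.025 for substrates and outputs. The median over all tested genes was -0.0093. Among AMPK subunits and upstream kinases 1 of 8 tested was higher and none lower: Prkag1, which encodes a nucleotide-sensing gamma subunit, by 0.22 on the log2 scale (SE 0.06, adjusted p = 0.034). Stk11, the gene of the AMPK-activating kinase LKB1, was at 0.18 (adjusted p = 0.15). Among mTOR complex subunits 1 of 7 was higher and none lower: Akt1s1, which encodes the mTORC1 inhibitor PRAS40, by 0.26 (SE 0.08, adjusted p = 0.044), and Prr5, an mTORC2 subunit gene, was at -0.27 (adjusted p = 0.32). Prkag1 averaged 32.1 ± 1.44 CPM in fasted knockout and 34.3 ± 1.998 CPM in fasted control livers, against 27.5 ± 0.28 CPM in fed knockout and 29.6 ± 1.78 CPM in fed control livers (SD, n = 3 each). The Prkag1 call was lost without any one of 8 libraries (fasted knockout 1 and 2, fasted control 2, fed knockout 1, 2 and 3, fed control 1 and 3), with adjusted p up to 0.087. The Akt1s1 call was lost without any one of 11 libraries, all but fasted control 3, with adjusted p up to 0.11. Both calls were also lost on log2(TPM + 1) with limma.

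Of 18 sensors and Rag regulators 2 were lower and none higher in the averaged fasting comparison. Fnip2, which encodes a partner of folliculin at the lysosome, had 54.9, 44.2 and 52.7 CPM in fasted knockout and 37.8, 46.4 and 38.6 CPM in fasted control libraries. In fed livers Fnip2 had 50.1, 60.6 and 60.8 CPM in knockout and 58.1, 80.5 and 65.0 CPM in control libraries. The control groups did not overlap, which 22.4% of all tested genes showed in either direction, and the knockout groups did. The averaged difference was -0.45 on the log2 scale (SE 0.10, adjusted p = 0.012), with -0.18 in knockout livers (adjusted p = 0.62) and -0.73 in control livers (adjusted p = 0.012) by edgeR. The control call was lost without the third fasted control library (adjusted p = 0.055), and the test of the difference between genotypes gave 0.55 with an unadjusted p of 0.014 and an adjusted p of 0.62 by edgeR. Sesn3, a sestrin gene like Sesn2, was lower, at -0.39 on average (SE 0.10, adjusted p = 0.032 by edgeR). Its call was lost without any one of 7 libraries (fasted knockout 2 and 3, fasted control 2 and 3, fed knockout 1, 2 and 3), with adjusted p up to 0.076, and on log2(TPM + 1) with limma (adjusted p = 0.20). The estimate for Sesn2, in contrast, was positive.

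Downstream of mTORC1, 1 of 13 tested substrate and output genes was lower and none higher. Pdcd4, which encodes a translation inhibitor that is degraded after phosphorylation by S6 kinase, had 79.1, 73.9 and 82.1 CPM in fasted knockout and 65.6, 65.1 and 61.1 CPM in fasted control libraries. In fed livers Pdcd4 had 107, 99.4 and 97.0 CPM in knockout and 90.1, 98.2 and 67.3 CPM in control libraries. Fasted values lay below fed values in both genotypes, and the third fed control library was closest to the fasted ones. A lack of overlap in either direction was shown by 23.3% of all tested genes in knockout livers and 22.4% in control livers. The averaged difference was -0.39 on the log2 scale (SE 0.09, adjusted p = 0.013 by edgeR) and it passed without each of the 12 libraries. Ulk1, the gene of the autophagy-starting kinase that mTORC1 inhibits and AMPK activates, was at -0.31 (adjusted p = 0.096). None of the 9 tested Rag and Ragulator genes passed, with Rragd at -0.37 (adjusted p = 0.45) and Lamtor1 at -0.05 (adjusted p = 0.66), nor did any of the 4 genes of the TSC and Rheb branch. There Rheb was at 0.06 (adjusted p = 0.61) and Rhebl1, at under 1 CPM in every group mean, at -0.96 (adjusted p = 0.20). None of the 59 genes passed in a comparison of knockout with control livers or in the test of the genotype difference in fasting, by edgeR or DESeq2. At an unadjusted p under 0.05 by edgeR there were 5 in fasted livers, 1 in fed livers, 6 on average and 3 in the test of the difference. The shares of all genes at that level were 9.01% in fasted livers, 6.12% in fed livers, 7.91% on average and 7.19% in the test of the difference.

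**Figure D5:**
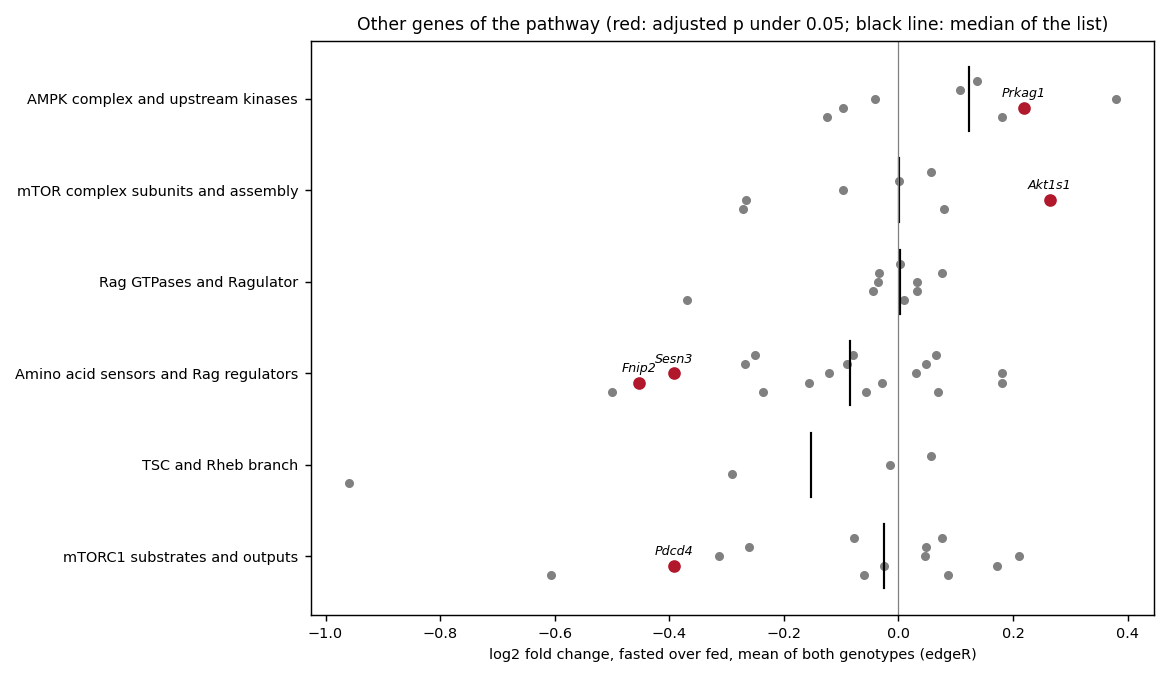
Averaged fasted over fed log2 fold change by edgeR of the 59 tested pathway genes, 1 row per list, with red points where the adjusted p was under 0.05 and a black line at each list's median. Prkag1 (0.22) and Akt1s1 (0.26) are the red points right of 0, and Fnip2 (-0.45), Sesn3 (-0.39) and Pdcd4 (-0.39) those left of it.

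The brakes each had close companions across the 12 libraries. Ranked by Pearson r of log2 CPM over 12609 tested protein-coding genes, Deptor was nearest to Ulk2 (r = 0.97), Hao1 (r = 0.96) and Lifr (r = 0.95). Ulk2 encodes a relative of the autophagy kinase ULK1, Hao1 a liver peroxisomal oxidase and Lifr the receptor of leukemia inhibitory factor. Sesn2 was nearest to Inhbb (r = 0.94), a gene of an activin subunit, Acer2 (r = 0.91), a gene of a ceramidase, and Nfya (r = 0.88), a gene of a CCAAT-binding factor. Ddit4 was nearest to Nek4 (r = 0.92), a kinase gene, Slc41a3 (r = 0.91) and Lad1 (r = 0.91). The Spearman rho of these 9 pairs lay between 0.83 and 0.97. These values are descriptions over libraries that share the fasting and genotype groups, and the pairs were the highest of many, so no test is given.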

How the data were processed

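Poly(A) RNA from frozen liver was made into strand-specific libraries, per the labels' protocols. The submitters' processing notes name build mm10 and, without roles, featureCounts 1.6.3, DESeq2 1.24.0, HISAT2 2.1.0, bcl2fastq 2.19 and Trimmomatic 0.38. Not given in the sources used here are the annotation release, the strand setting and how multiply matching reads were treated. Per Ensembl gene, the deposited files hold the authors' raw counts and their TPM, which is scaled by gene length and by library; both hold 12 columns, each matched to its sample by the library name in the labels.

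Counts were tested with edgeR 4.0.16 (quasi-likelihood, robust, TMM scaling, filterByExpr) in R 4.3.3, on 1 model of 4 groups over all 12 libraries. The 7 comparisons were knockout against control in fasted livers, in fed livers and on average, fasted against fed in knockout livers, in control livers and on average, and the interaction. P-values were adjusted by Benjamini-Hochberg over 15862 genes at a threshold of 0.05. Of the annotated genes 26344 had no count in any library, and the filter kept at least 99.87% of each library's counts. CPM in the text are TMM-scaled. Intervals cover 95%. Alternatives were RLE scaling, no filter, DESeq2 1.42.0, limma 3.58.1 on log2(TPM + 1) and log2(TPM + 0.1) for genes of mean TPM of at least 0.5, on log2(TPM + 1) without that filter, the compared groups alone, the replicate number as a block, and leaving out each library. An adjusted p that DESeq2 gave as NA was kept as NA and counted as not passing. The edgeR test was tested on simulated counts for the averaged fasting comparison, with changes put into genes of more than 100 mean counts. It recovered 50% of 100 genes changed by 0.5 on the log2 scale and 91% of 100 genes changed by 1, with 10 false calls. No 2 libraries held identical counts. The design text calls the 3 libraries of a group biological replicates and the labels name no batch, so p-values measure the spread between these samples.

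The members and gene lists were chosen with earlier results of these data known. The text names all members, Foxo3, the listed pathway genes past the threshold in any comparison, the 2 with the smallest unadjusted p per list for the averaged fasting comparison, and the 3 protein-coding genes with the highest Pearson r with Ddit4, Sesn2 and Deptor. Col1a1 and Spp1 were named after their values were seen. Gene positions are those of the deposited tables, exon overlaps were computed from GENCODE M21 on the same build, and promoter windows are from RefSeq.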

Additional observations from a re-analysis of the deposited data

How the results depend on the processing

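Of 70 member estimates, 20 changed sign without some single library and 4 in another setting; none of these had passed a test. For knockout against control in fed livers these ranges were Prkaa2 -0.0029 to 0.20, Mtor -0.15 to 0.0047, Rptor -0.00027 to 0.10, Tsc1 -0.016 to 0.14, Tsc2 -0.015 to 0.065 and Sesn2 -0.21 to 0.39. In fasted livers they were Tsc2 -0.061 to 0.041, Ddit4 -0.78 to 0.032 and Sesn2 -0.18 to 0.070. Averaged over feeding states they were Tsc2 -0.019 to 0.037, Ddit4 -0.26 to 0.14 and Sesn2 -0.13 to 0.17. For fasted against fed in knockout livers they were Prkaa1 -0.16 to 0.10 and Ddit4 -0.012 to 0.56. In control livers they were Mtor -0.083 to 0.073 and Rictor -0.11 to 0.047. For the interaction they were Rptor -0.050 to 0.065, Tsc2 -0.087 to 0.0086, Sesn2 -0.43 to 0.18 and Deptor -0.12 to 0.22. Prkaa1 in knockout livers, fasted against fed, turned to 0.0061 with RLE scaling, 0.016 without the filter, 0.0053 by DESeq2 and 0.00021 on the compared groups. On log2(TPM + 1), log2(TPM + 0.1) and log2(TPM + 1) without a filter, Tsc2 for knockout against control was -0.014, -0.015 and -0.014 in fed livers and -0.017, -0.018 and -0.017 on average. The interaction of Rptor was 0.0066 without the count filter and 0.029, 0.029 and 0.029 on those TPM scales. The cause was not tested.

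Members called in the averaged fasting comparison numbered 1 to 5 without single libraries, 1 on both filtered TPM scales (Prkaa2) and 0 on the unfiltered one, while those called in control livers numbered 0 to 1, 2 without the filter and by DESeq2, and 0 on all 3 TPM scales and on the compared groups. No member was called in the other comparisons in any setting. Genes called without single libraries numbered 1 to 6 for knockout against control in fasted livers, 0 to 1 in fed livers and 1 to 3 on average. For fasting they numbered 88 (without fed knockout 1) to 573 (without fed control 3) in knockout livers, 272 (without fasted control 2) to 648 in control livers and 1025 to 1425 on average, and for the interaction 1 to 3. Without the filter the counts were 13, 5 and 4 for knockout against control in fasted livers, fed livers and on average, and 5 for the interaction. By DESeq2 they were 42, 33 and 46, then 794 and 1188 for fasting in knockout and control livers, and 60 for the interaction. On log2(TPM + 1) knockout against control gave 3 genes in fasted livers and 1 on average. On log2(TPM + 0.1) it gave 4 in fed livers and 5 on average, with 3 for the interaction. On unfiltered log2(TPM + 1) it gave 1 in fed livers and 1 on average, with 195, 821 and 316 for fasting in knockout livers, on average and in control livers. The compared groups alone gave 1 gene in fasted and 1 in fed livers for knockout against control and 312 for fasting in control livers. No scaling moved the median of all tested genes in the fasting comparison averaged over genotypes beyond -0.0175.

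Replicate numbers did not pair the mice: deviations from group means of same-numbered libraries correlated at -0.28 to 0.18 over 18 pairs, with 3 above 0.1. With the replicate block, 1 member was called in the averaged fasting comparison (Tsc1), while Prkaa2 and Rptor had adjusted p of 0.061 and 0.054 by edgeR. The calls of Prkag1, Akt1s1 and Sesn3 were also lost with it, at adjusted p of 0.058, 0.052 and 0.0605. The block gave 3 genes for knockout against control in fasted livers and 232 for fasting in knockout livers. Ddit4 had the lowest counts of the members, 54 to 276 per library.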

Other observations

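The balance of the TSC genes was examined after their values had been seen, as a description without a test. The ratio of Tsc2 to Tsc1 in TPM averaged 2.33 ± 0.25 in fasted knockout and 2.84 ± 0.50 in fasted control livers, against 1.79 ± 0.10 in fed knockout and 1.85 ± 0.03 in fed control livers (SD, n = 3 each). The lowest ratio among the 6 fasted libraries was 2.105 and the highest among the 6 fed libraries was 1.87. The fasted and fed ranges thus did not overlap. The share of gene pairs with such a separation was not computed, and Tsc1 alone was already separated on the CPM scale.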
